A study of Homo sapiens with 4 samples.

Results

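The genes described here are the 7 FOS and JUN family subunits of the transcription factor AP-1 (FOS, FOSB, FOSL1, FOSL2, JUN, JUNB and JUND) and the immediate early genes EGR1, IER3 and ATF3. They were chosen by name, and all 10 of them have values among the 13165 genes of the deposited table. RNA was sequenced from TPC1, a human papillary thyroid carcinoma cell line grown in DMEM with 10% fetal bovine serum. The control group (TPC1-Vector) was a stable line made with the empty vector, and the other group (TPC1-INAVA) was a stable line overexpressing C1orf106, the older symbol of INAVA. Both lines went through puromycin selection, each group has 2 libraries, and the sources used here do not say whether those came from separate cultures. The comparison asks how the transcripts of these cells differ once INAVA is overexpressed.

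The table gives 1 FPKM value (fragments counted on a gene, divided by its transcript length and by the library's mapped fragments) for each gene and group, the authors' value over the group's libraries. There is therefore no spread between replicates from which a difference could be tested, the differences are given as descriptions, and the sequencing depth is unknown. A difference is the log2(FPKM + 0.5) of TPC1-INAVA minus that of TPC1-Vector, which understates the change of low genes, and a ratio is the plain ratio of the FPKM values. Genes averaging 0.5 FPKM or more over the groups were kept (12305 genes), and a gene was counted as higher or lower from a 1.5-fold difference on the log2(FPKM + 0.5) scale. In bulk RNA, fewer cells of a type and less RNA per cell cannot be told apart.

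AP-1 is a dimer of basic leucine zipper proteins. JUN proteins pair with each other or with a FOS protein, whereas FOS proteins need a JUN partner to bind DNA. Immediate early genes are those that a cell switches on within minutes of a growth factor or stress signal, without making new protein first. In resting or steadily growing cells FOS, FOSB and EGR1 are usually low, while FOSL1 is often abundant in carcinoma cells with active RAS-ERK signalling.

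The overexpressed gene followed its labels, with C1orf106 at 7.96 FPKM in the control and 123 FPKM with INAVA, a difference of 3.86. GAPDH, a glycolytic enzyme commonly used as a loading reference, was at 3107 and 2947 FPKM. Of the thyroid markers, the transcription factors PAX8 (60.1 and 55.7 FPKM) and FOXE1 (5.26 and 5.89 FPKM) were present, while TG, TSHR, SLC5A5 and NKX2-1 have no value in the table used here. Markers of fibroblasts were low (COL1A1 at 0.937 and 0.571 FPKM, LUM at 0.383 and 0.225 FPKM), and the leucocyte markers PTPRC and CD3E, the fibroblast markers COL3A1 and DCN and the epithelial markers EPCAM, CDH1 and KRT19 have no value there. CD68, which macrophages express strongly, was at 5.76 and 8.67 FPKM, and its part in the results below was not tested. KRT8 (23.4 and 10.5 FPKM) and KRT18 (140 and 212 FPKM) are listed at 1 shared position in the table, so their values may be split between them.

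The promoters of several of these genes hold matches to known DNA motifs, and 5 are shown because they hold the clearest examples. The letters are the 200 bases before the transcription start given by RefSeq (GRCh38.p14), read 5′ to 3′ on the gene's strand, except that FOS runs from -200 to -25 and JUN from -78 to -49. Capitals mark the CArG boxes of EGR1, to which SRF binds, the TGACG and TATAAA of FOS and FOSB, the TGACATCA of JUN, and the TGACGTCA of JUND. For JUN and FOS the start in GENCODE 29 lies upstream of the one in RefSeq. The TGACATCA of JUN and the TATAAA of FOS therefore lie inside the gene as GENCODE 29 places it, and the windows were shortened to show few such bases.
EGR1, chr5:138465279-138465478, plus strand: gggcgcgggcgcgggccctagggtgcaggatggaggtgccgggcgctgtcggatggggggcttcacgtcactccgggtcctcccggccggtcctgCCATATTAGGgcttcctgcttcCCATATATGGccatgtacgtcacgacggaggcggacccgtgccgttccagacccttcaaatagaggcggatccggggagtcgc
FOS, chr14:75278628-75278803, plus strand: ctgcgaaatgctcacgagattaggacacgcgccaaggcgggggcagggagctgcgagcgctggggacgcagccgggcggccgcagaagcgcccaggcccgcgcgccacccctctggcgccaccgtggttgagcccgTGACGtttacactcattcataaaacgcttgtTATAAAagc
FOSB, chr19:45467796-45467995, plus strand: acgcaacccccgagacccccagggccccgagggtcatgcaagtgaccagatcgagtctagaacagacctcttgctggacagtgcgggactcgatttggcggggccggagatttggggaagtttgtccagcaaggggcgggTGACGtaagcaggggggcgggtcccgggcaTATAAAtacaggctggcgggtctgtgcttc
JUN, chr1:58784096-58784125, minus strand: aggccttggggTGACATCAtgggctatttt
JUND, chr19:18281623-18281822, minus strand: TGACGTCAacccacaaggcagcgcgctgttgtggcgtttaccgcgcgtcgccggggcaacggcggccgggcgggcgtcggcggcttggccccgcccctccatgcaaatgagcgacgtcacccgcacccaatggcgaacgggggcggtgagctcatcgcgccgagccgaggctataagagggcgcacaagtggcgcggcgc

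Motifs were searched on both strands from 250 bases before to 50 bases after each start, over 35116 RefSeq promoters. Promoters were matched for 8 of the 10 genes, with 9 entries since ATF3 has 2. FOSL1, IER3, MMP1 and MMP9 were not matched. The AP-1 site (TGAGTCA or TGACTCA), which is found in 4.95% of all promoters, was in FOSL2 alone among the 8, from base 5 to base 11 after its start. TGACATCA, a variant AP-1 and ATF site held by 2.61% of promoters, was found in JUN at -67 to -60 and in the promoter at the upstream start of ATF3 at -123 to -116. The full cyclic AMP response element TGACGTCA (1.85% of promoters) was in JUND alone, at -200 to -193.

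EGR1 was the sole gene of the 8 with CArG boxes in this window, at -105 to -96 and -83 to -74. At least 1 was held by 1.29% of all promoters. CArG boxes farther upstream were not searched, so FOS and the other genes may hold them outside the window. TGACG, the shorter form of the cyclic AMP response element, is common (24.6% of promoters) and was present in 7 of the 8 genes, JUND holding it within its TGACGTCA and again at -86 to -82. In FOS it lay at -64 to -60 with TATAAA at -33 to -28, and in FOSB at -60 to -56 with TATAAA at -30 to -25. JUNB had the same pair at -137 to -133 and -31 to -26. TATAAA was in 11.5% of all promoters, and in 4 of the 9 entries. The other one was that of the downstream start of ATF3, where it lay much farther from the start, at -230 to -225. GCGTGGGCG, the site that EGR1 itself binds, was in 0.795% of promoters and in none of the 9 entries. These are matches of letters, and no binding was measured.

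**Figure D1:**
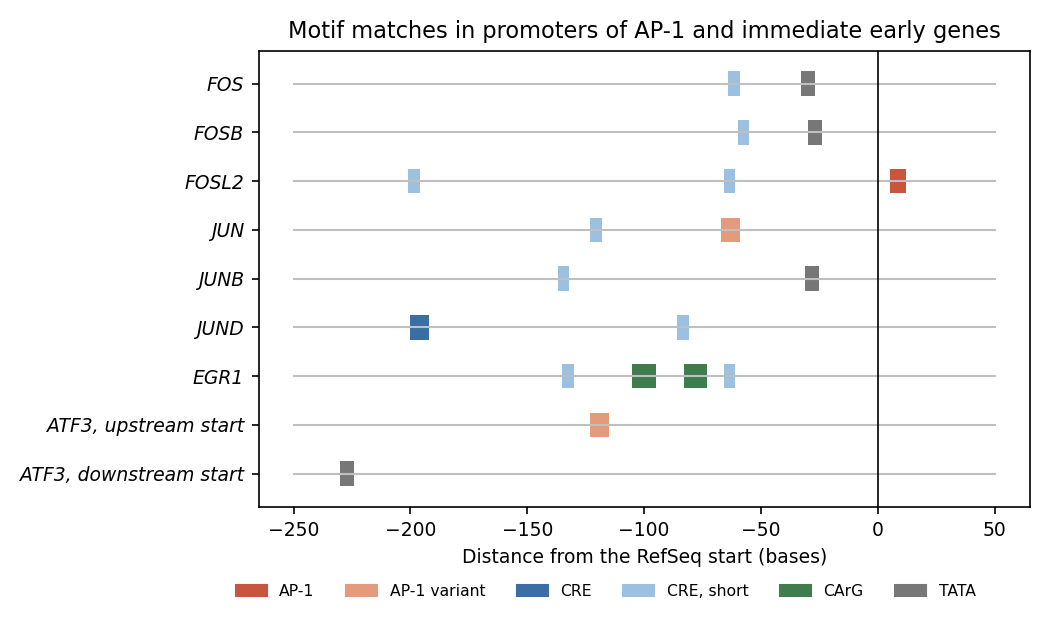
Positions of the motif matches in the 9 promoter entries, in bases from the RefSeq transcription start (horizontal axis), with 1 row per entry and 1 mark per match, coloured by motif (CRE is TGACGTCA, CRE, short is TGACG, AP-1 variant TGACATCA). The CArG boxes stand in the EGR1 row, and the TATAAA matches of FOS, FOSB and JUNB lie between -33 and -25.

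Levels of the 10 genes spanned a 592-fold range of mean FPKM. None of the 9 genes kept was at least 1.5-fold higher in TPC1-INAVA, where 2.24% of all genes kept (276 of 12305) were, and none was at least 1.5-fold lower, where 1.45% (179) were. With a pseudocount of 0.1 in place of 0.5, FOSB and ATF3 were counted as higher, beside 3.06% of all genes kept. By any size, 6 of the 10 were higher and 4 lower, where 50.8% of all genes kept were higher. The 5 genes averaging 10 FPKM or more (FOSL1, FOSL2, JUN, JUND and IER3) had ratios of 0.811 to 1.28. The 4 with a mean below 2 FPKM (FOS, FOSB, EGR1 and ATF3) had ratios of 0.917 to 1.77. A ratio of at least 1.5 was seen in 3 of them, 1 of which, EGR1, was not kept. With no pseudocount, 3.34% of all genes kept were at least 1.5-fold higher, and ratios spread more at low levels. The median difference of the 9 kept was 0.20, beside 0.0033 over all genes kept. Their median absolute difference was 0.30, beside 0.12 over all genes kept, and 7 of the 9 were above the latter.

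**Figure D2:**
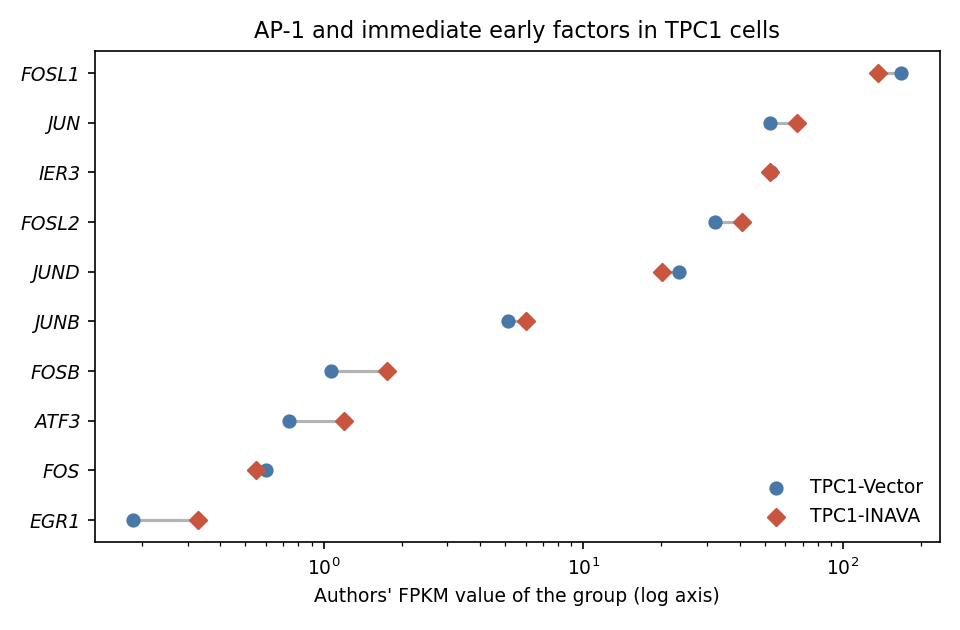
FPKM of each of the 10 genes in TPC1-Vector and TPC1-INAVA on a log axis, 1 point per group, as deposited with no error. FOSL1 is the highest gene in both groups (168 and 136 FPKM) and EGR1 the lowest (0.185 and 0.328 FPKM).

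FOSL1 encodes FRA1, a FOS family protein without the strong transactivation domain of FOS, which is stabilised by ERK phosphorylation and is linked to invasion in carcinomas. It lies on the minus strand at chr11:65892136-65900526 (hg38, deposited position). FOSL1 stood at 168 FPKM in the Vector cells and at 136 FPKM in the INAVA cells, a ratio of 0.811 and a difference of -0.30. It was the highest of the 10 in both groups, above 96.1% of genes kept by its mean level, and it had the lowest difference of the 10, with 7.51% of all genes kept at or below it. In its band of expression, 100 FPKM and above, 90% of the 782 genes had an absolute difference of at most 0.33.

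FOSL2, encoding FRA2, is the other FOS family member that lacks that domain. It had 32.1 FPKM with the empty vector and 41 FPKM with INAVA, a ratio of 1.28 and a difference of 0.35, within 1.5-fold like that of FOSL1. Its difference was at or above that of 93.4% of genes kept, and the 90th percentile of the absolute difference in its band (10 to 100 FPKM) was 0.32. The deposited span of FOSL2 (chr2:28384409-28414649) begins 8039 bases before the start of the gene in GENCODE 29.

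FOS and FOSB, the members with a strong transactivation domain, were scarce. FOS (chr14:75278778-75282234) measured 0.6 FPKM in TPC1-Vector against 0.55 FPKM in TPC1-INAVA, a difference of -0.07. FOSB (chr19:45467995-45475179) was at 1.07 and 1.75 FPKM, a ratio of 1.64, which is a difference of 0.52 once 0.5 FPKM is added. FOSB had the highest difference of the 9 genes kept, at or above that of 97.2% of all genes. In GENCODE 29 it lies within the span of ERCC1 on the other strand, with 0 exon bases shared, whereas their deposited positions do not overlap. At low levels ratios spread more: in the band from 1 to 10 FPKM, 3.14% of 4815 genes were at least 1.5-fold higher.

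Because FPKM is scaled by transcript length, the family members can be set roughly side by side within a group. Effects of base composition and of the annotated transcript on the family shares and sums were not tested. FOSL1 made up 83.3% of the summed FOS family FPKM in TPC1-Vector and 75.9% in TPC1-INAVA, whereas FOSL2 made up 15.9% and 22.9%. FOSB (0.531% and 0.976%) and FOS (0.297% and 0.306%) together added little in either group. The ratio of FOSL1 to FOSL2 was 5.23 in TPC1-Vector and 3.32 in TPC1-INAVA. The FOS family summed to 202 FPKM in TPC1-Vector against 179 FPKM with INAVA, a ratio of 0.89.

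JUN encodes c-Jun, the AP-1 subunit that JNK phosphorylates and a partner of every FOS protein. JUN (chr1:58780791-58784113, minus strand) stood at 52.5 FPKM in the Vector cells and at 66.4 FPKM in the INAVA cells, a ratio of 1.27 and a difference of 0.34. This was close to the difference of FOSL2, and the ratio of FOSL2 to JUN was 0.612 in TPC1-Vector and 0.618 in TPC1-INAVA. The difference of JUN was at or above that of 93% of genes kept.

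JUND and JUNB, which often oppose c-Jun in growth control, were lower in level than JUN. JUND (chr19:18279694-18281656, minus strand) had 23.4 FPKM with the empty vector and 20.2 FPKM with INAVA, a difference of -0.21. JUNB (chr19:12791496-12793311) was at 5.15 and 6.02 FPKM, a difference of 0.20. In GENCODE 29 it lies within the span of HOOK2 on the other strand with 0 exon bases shared, and the deposited positions of these genes do not overlap. JUN, JUNB and JUND each have a single exon, a structure found in 1.94% of the 10350 genes kept that have a 3′ UTR of at least 100 bases.

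JUN made up 64.8% of the summed JUN family FPKM in TPC1-Vector and 71.7% in TPC1-INAVA. JUND made up 28.9% and 21.8%, and JUNB 6.36% and 6.49%. The ratio of JUN to JUND was 2.24 in TPC1-Vector and 3.29 in TPC1-INAVA. The JUN family summed to 81 FPKM in TPC1-Vector against 92.6 FPKM with INAVA, a ratio of 1.14, and both families together to 283 and 272 FPKM, a ratio of 0.962. The FOS family sum was 2.49 times that of the JUN family in TPC1-Vector and 1.94 times in TPC1-INAVA, with the ratio of FOSL1 to JUN at 3.2 and 2.05.

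**Figure D3:**
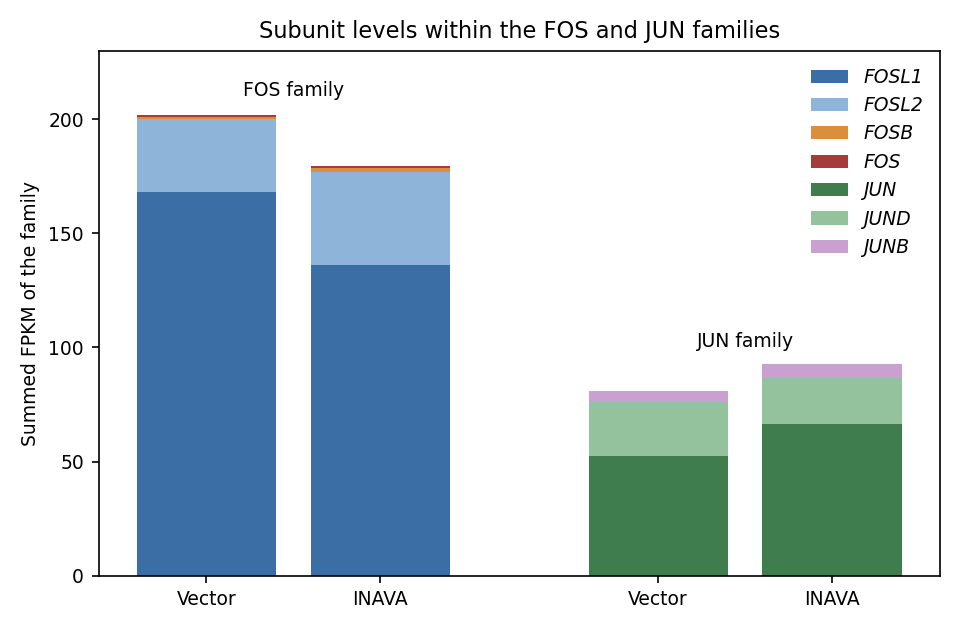
Level of each subunit within the summed FPKM of the FOS family and of the JUN family, as stacked bars for TPC1-Vector and TPC1-INAVA (vertical axis in FPKM, from 0, as deposited with no error). FOSL1 holds 83.3% and 75.9% of the FOS family, and JUN 64.8% and 71.7% of the JUN family.

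ATF3 is a stress-induced basic leucine zipper protein that can pair with JUN proteins. ATF3 (chr1:212565334-212620777) measured 0.735 FPKM in TPC1-Vector against 1.2 FPKM in TPC1-INAVA, a ratio of 1.63 and a difference of 0.46, at or above that of 96.1% of genes kept. In the band from 0.5 to 1 FPKM, in which its mean lies, 6% of 883 genes were at least 1.5-fold higher and 90% had an absolute difference of at most 0.55.

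EGR1 is a zinc finger factor switched on through SRF and ELK1 at its CArG boxes. EGR1 (chr5:138465492-138469315) stood at 0.185 FPKM in the Vector cells and at 0.328 FPKM in the INAVA cells. Its ratio of 1.77 was the highest of the 10, but its difference on the log2(FPKM + 0.5) scale was 0.27 and it did not pass the filter on low values.

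IER3, a short-lived protein that affects survival and ERK signalling, had the smallest difference of the 10. IER3 had 53 FPKM with the empty vector and 52.2 FPKM with INAVA, a ratio of 0.985 and a difference of -0.02. The table places it on an alternate sequence of the chromosome 6 major histocompatibility region, from 2043995 to 2045346, while GENCODE 29 has it on the reference chromosome at chr6:30743199-30744554. Its reads may be split between these copies, and this was not tested.

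**Figure D4:**
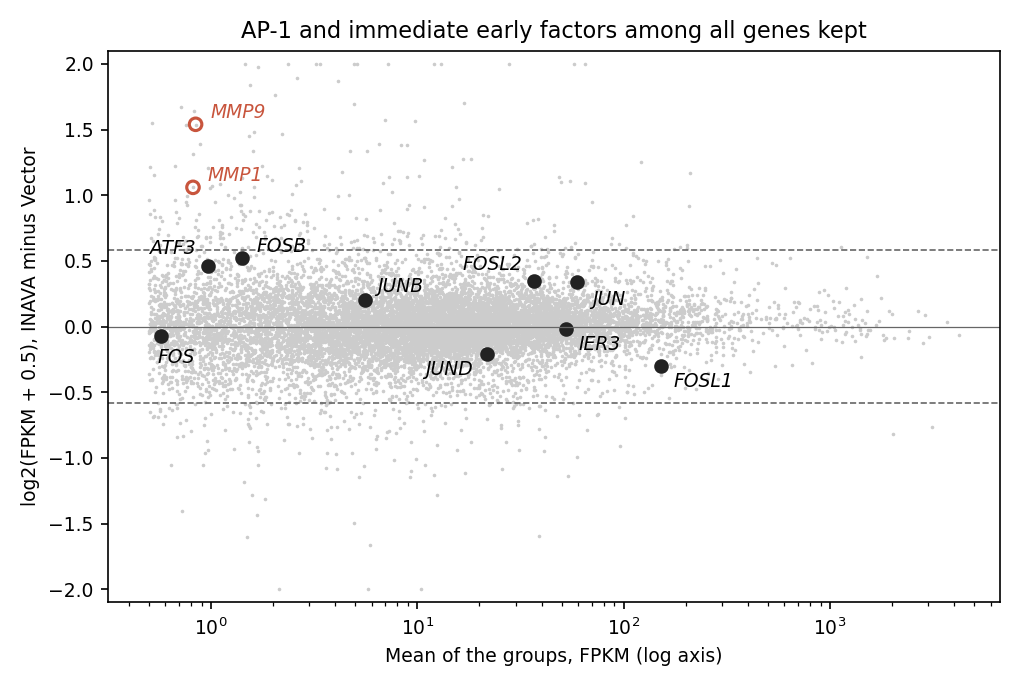
Difference in log2(FPKM + 0.5), TPC1-INAVA minus TPC1-Vector, against the mean FPKM of the groups on a log axis for the genes kept (grey); the 9 genes kept are black, MMP1 and MMP9 are open circles, and dashed lines mark 1.5-fold. 14 genes beyond 2 in size are drawn at the edge, 1 gene above 5000 FPKM is left out, and all 9 lie between the dashed lines.

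The mRNAs of immediate early genes are short-lived, in part through AU-rich elements in the 3′ UTR to which decay factors such as ZFP36 bind. At least 1 ATTTA, the core of such an element, was found in the 3′ UTR of all 10 genes (GENCODE 29), as in 72.5% of the 10350 genes kept that have a 3′ UTR of at least 100 bases. FOS held 5 (6.2 per kilobase) and IER3 held 6 (8.14 per kilobase), densities above those of 94.6% and 98% of these genes. JUNB had 4 per kilobase, and the other 7 lay between 0.81 (EGR1) and 2.45 (ATF3). The median of the 10350 genes was 1.75 per kilobase, and 6 of the 10 were above it. The densest stretches of FOS and IER3 are given here from GRCh38, with ATTTA in capitals.
FOS, chr14:75282057-75282086, plus strand: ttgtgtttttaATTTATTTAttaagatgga
IER3, chr6:30743648-30743677, minus strand: taattaatATTTAtatgtATTTAtgtacgt

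Genes near each of the 10 were read from the deposited positions, within 1 Mb on either side. FOSL1 lies in a gene-rich stretch in which 71 genes were kept, with a median difference of 0.07, and the lowest of them was at -0.32, near FOSL1's own -0.30. The 17 genes around FOSL2 had a median of 0.05 and a highest value of 0.17, below FOSL2's 0.35. The 17 genes around ATF3 had a median of -0.16, 2 higher and 15 lower, so that ATF3 stood 0.62 above that median. For FOSB (39 genes, median 0.11), JUNB (35, 0.11) and JUND (44, 0.05) the genes stood 0.41 above, 0.09 above and -0.25 from the median of their neighbours. The neighbours of FOS (20 genes) and EGR1 (21) both had a median of -0.01, JUN had just 3 (median 0.08), and the 44 around IER3 on its alternate sequence had a median of 0.07.

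Among 13 other basic leucine zipper genes whose proteins can pair with or compete with AP-1 subunits, 8 have values and 7 were kept. Beside 2.24% and 1.45% of all genes kept, none of the 7 was 1.5-fold higher or lower. Their median was -0.08, and they ranged from -0.35 to 0.31. Chosen after their values were seen, the lowest was JDP2, a repressor of AP-1 dimers, at 7.17 FPKM in the control and 5.52 FPKM with INAVA, and the highest was MAFK, a small MAF protein, at 5.01 and 6.35 FPKM, whose deposited span overlaps TMEM184A.

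Of the factors that switch on immediate early genes, 1 kinase passed 1.5-fold. Over all genes kept, 2.24% were higher and 1.45% lower by that fold. These are transcript levels, and the activity of the proteins was not measured. Of 8 genes for SRF, its cofactors, ELK factors and CREB factors, all kept, none was 1.5-fold higher or lower, with a median of -0.09 and a range of -0.30 to 0.19. Of 17 MAP kinase and MAP kinase kinase genes, 16 were kept, none was higher and 1 was lower, with a median of -0.04. The lower one was MAP2K6, which activates p38, at 4.47 FPKM in the control and 2.67 FPKM with INAVA, a difference of -0.65 that did not pass 1.5-fold with a pseudocount of 1. Of 9 genes linked to AP-1 or EGR1 through co-repression, protein turnover or mRNA decay, all were kept and none passed 1.5-fold. Their median was -0.02, with a range of -0.20 to 0.19.

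Of 30 other immediate early and early response genes, 24 have values and 23 were kept. In TPC1-INAVA 4 of these (17.4%) were at least 1.5-fold higher and none lower, beside 2.24% and 1.45% of all genes kept, the median was 0.21, and 19 were above the median of all genes. DUSP1, a phosphatase that inactivates MAP kinases, measured 10.4 FPKM in TPC1-Vector against 26 FPKM in TPC1-INAVA, a difference of 1.27. BTG2, an antiproliferative gene that p53 can induce, was at 10.6 and 21.4 FPKM, a difference of 0.97. SGK1, a kinase induced by serum and glucocorticoids, was at 2.33 and 4.76 FPKM, a difference of 0.90. PLK3, a stress-responsive kinase, was at 4.72 and 7.64 FPKM, a difference of 0.64, and its position in the table overlaps that of TCTEX1D4. EGR2, EGR3, EGR4, NR4A2, NR4A3 and ARC have no value in the table used here.

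Of 21 genes commonly described as AP-1 targets, 17 have values and all 17 were kept, 8 of them (47.1%) at least 1.5-fold higher in TPC1-INAVA and none lower, beside 2.24% and 1.45% of all genes kept. MMP1 and MMP9 passed the filter on low values solely through their level in TPC1-INAVA, so their place among the 8 was fixed in part by the filter. The median of the 17 was 0.51, and 13 were above the median of all genes. With a pseudocount of 1 the count was 5, beside 1.63% of all genes kept. The study picked out invasion and metastasis genes, MMP9 among them, on these libraries, so the count is not independent evidence of direction. For MMP9 the study also reported an increase with INAVA overexpression and a decrease after INAVA knockdown. Those came from RT-PCR, western blotting and gelatin zymography. MMP9, a gelatinase, stood at 0.188 FPKM in the Vector cells and at 1.5 FPKM in the INAVA cells, a difference of 1.54.

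MMP1, an interstitial collagenase, had 0.354 FPKM with the empty vector and 1.28 FPKM with INAVA, a difference of 1.06, and its deposited span overlaps MMP3. The cytokines IL11 (0.807 and 1.63 FPKM) and IL6 (2.01 and 3.48 FPKM) had differences of 0.71 and 0.67, and the deposited span of IL6 overlaps STEAP1B. TIMP1, an inhibitor of matrix metalloproteinases, was at 74.7 and 116 FPKM, a difference of 0.63, and its span overlaps ARAF and SYN1. Outside the naming rule and chosen after their values were seen, PLAUR (difference 0.62) and HBEGF (0.59) also passed 1.5-fold. Chosen after its value was seen, PLAU, the urokinase whose receptor PLAUR encodes, measured 288 FPKM in TPC1-Vector against 218 FPKM in TPC1-INAVA, a difference of -0.40, and its deposited span overlaps C10orf55.

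**Figure D5:**
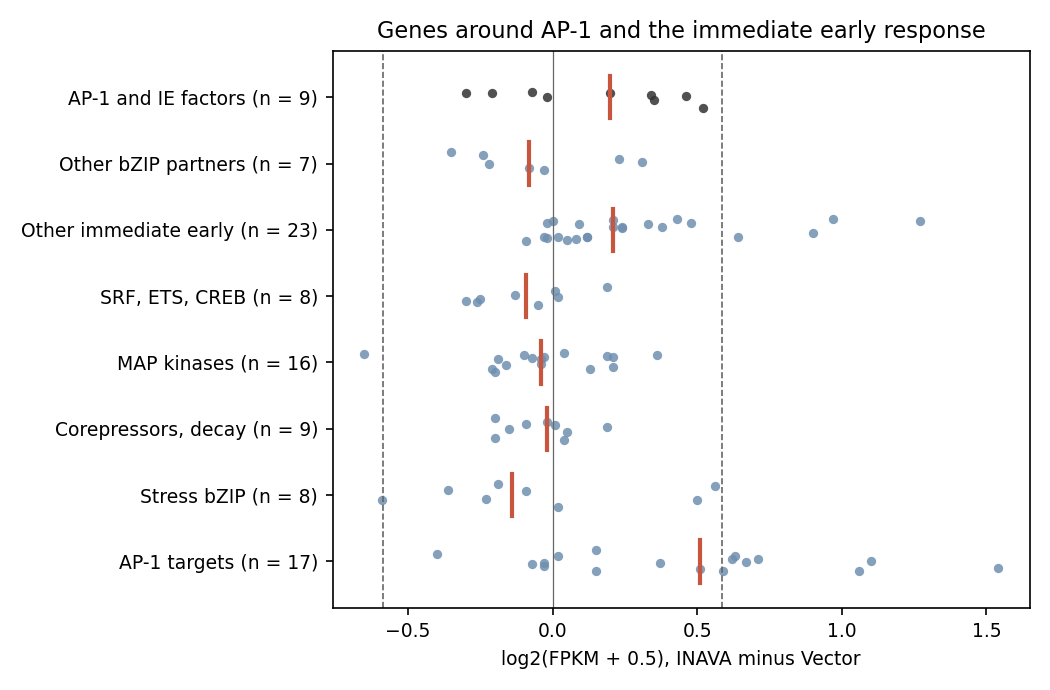
Difference in log2(FPKM + 0.5), TPC1-INAVA minus TPC1-Vector, for the AP-1 and immediate early factors (black) and the genes of 7 other lists (blue), 1 point per gene kept, with the list median as a red bar and 1.5-fold as dashed lines. The medians of the AP-1 targets (0.51) and the other immediate early genes (0.21) lie to the right of those of the kinases (-0.04) and the SRF, ETS and CREB factors (-0.09). With a filter at a mean of 1 FPKM, the medians of the AP-1 targets and the other immediate early genes were 0.37 and 0.16. The lists were chosen with earlier results of these data known.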

How the data were processed

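RNA-seq libraries from TPC1-Vector and TPC1-INAVA cells (2 each) were deposited as 1 table of 13165 genes with 1 FPKM value per gene and group, which the authors made. The processing notes in the labels name CASAVA, Cufflinks 2.1.1, Cuffdiff and hg38; the aligner and the annotation are not given in the sources used here. The library kit and the sequencer are named differently in the labels and in the study's methods. The table also holds the authors' own log2 ratios, p-values and q-values, which were not used. FPKM keeps no read count, so depth and counting error are unknown.

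Genes averaging 0.5 FPKM or more were kept, and differences were taken on log2(FPKM + 0.5) with a 1.5-fold threshold (Python 3.11.15, numpy 2.4.6, pandas 2.3.3, matplotlib 3.10.9). The code was checked on simulated data. With 1 value per group, no replicate test, pairing or leave-one-out could be run, and the planned limma fit was not used. Positions are those deposited (hg38), starts counted from 1, with GENCODE 29 for exons and UTRs and RefSeq (GRCh38.p14) for promoters. Protein sequences, which were planned, were not used here. All 10 genes are named, with C1orf106, GAPDH, MMP1, MMP9 and, in each list, the genes past 1.5-fold or the 6 with the largest change where more passed; some items that these rules cover are counted in their lists but not reported here. The members and lists were chosen with earlier results of these data known; the TGACATCA and ATTTA searches were added after the data were seen. Alternatives were other pseudocounts, filters, thresholds, scalings and windows.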

Additional observations from a re-analysis of the deposited data

How the results depend on the processing

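With no spread between replicates, a difference was counted as moved when it shifted by more than 0.1. For a gene or list, crossing 1.5-fold or changing sign also counted as a move. A count or family share was counted as moved when it differed by over 1.5 times. Of 336 alternative values, 307 kept to these limits and 29 moved. Some of the 307 could not move. A filter leaves the value of a single gene unchanged, and median-of-ratios scaling cancels in a share within a group. The share of FOS in its family moved when 0.5 FPKM was added, from 0.297% to 0.54% in TPC1-Vector and from 0.306% to 0.579% in TPC1-INAVA. The sign changed solely for the medians of the genes around JUN (0.08) and FOS (-0.01), which were -0.06 and 0.01 within 0.5 Mb. The count of the 9 genes at least 1.5-fold higher, 0 as reported, was 2 with a pseudocount of 0.1 (FOSB and ATF3), 2 with no pseudocount (an alternative chosen after seeing the data) and 4 at a lower threshold of 0.32 on the log2 scale, while the count of lower genes stayed at 0 under every alternative run. Over all genes kept, 3.06% and 2.35% (376 and 289) were higher and lower at a pseudocount of 0.1, 1.63% and 1.01% (201 and 124) at 1, 0.61% and 0.244% (75 and 30) at 2-fold, 7.69% and 6.74% (946 and 829) at the threshold of 0.32, and 3.34% and 2.67% (411 and 329) with no pseudocount. Each of the 10 genes kept its sign under median-of-ratios scaling and quantile normalization. Other pseudocounts and filters cannot change the sign of a gene, so they say nothing on this. Over all alternatives the differences ran from -0.35 to -0.30 for FOSL1, 0.33 to 0.35 for FOSL2 and 0.30 to 0.34 for JUN. They ran more widely for EGR1 (0.16 to 0.82), ATF3 (0.34 to 0.70) and FOSB (0.41 to 0.71). The AP-1 targets counted as higher, 8 as reported, were 5 at a pseudocount of 1 and 3 at 2-fold, and their median was 0.37 with a filter at a mean of 1 FPKM. The other immediate early genes counted as higher, 4 as reported, were 1 at 2-fold and 8 at the threshold of 0.32. MAP2K6 and ASNS were not counted as lower with a pseudocount of 1 or at 2-fold. No paired analysis was possible because the table has 1 value per group, and for the same reason no library could be left out.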

Other observations

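Genes of the amino acid and endoplasmic reticulum stress response, which ATF4 and related basic leucine zipper proteins control, were within 1.5-fold apart from ASNS. Of 8 genes, all kept, none was at least 1.5-fold higher and 1 was lower, beside 2.24% and 1.45% of all genes kept. The 8 had a median of -0.14 and a range of -0.59 to 0.56. The lower one was ASNS, asparagine synthetase, at 36.3 FPKM with the empty vector and 23.9 FPKM with INAVA. Chosen after their values were seen, ATF4 was at 352 and 330 FPKM and DDIT3, a stress factor of the same class, at 4.57 and 3.46 FPKM (its deposited span overlaps MARS and ARHGAP9). SESN2, which restrains mTORC1, was at 10.1 and 15.1 FPKM (difference 0.56) and CEBPB at 16.2 and 23.2 FPKM (difference 0.50), neither past 1.5-fold.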
